A study of Mus musculus with 8 samples.

Results

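Opioid and tachykinin signalling is covered here by 8 genes chosen by symbol: the peptide precursors Penk, Pdyn, Pnoc and Tac1, and the opioid receptor genes Oprk1, Oprm1, Oprd1 and Oprl1. They are 8 of the 31053 features of the count matrices, and all 8 were found. A further 47 genes that make, store, sense or break down such peptides were read beside them. RNA was counted in single cells dissociated from mouse prefrontal cortex (PFC) and striatum of wild-type (WT) and Setd1a+/- mice. The comparison asks how loss of 1 copy of Setd1a, a histone H3 lysine 4 methyltransferase gene linked to schizophrenia, goes with expression in each cell type. The 4 groups held 2 libraries each, every library pooling tissue of 2 male mice of 8 to 10 weeks on the C57BL/6N background as the labels give it, while the study's methods state an older age range. The Setd1a+/- mice carried a germline CRISPR-Cas9 frameshift ahead of the SET domain, a mutation picked among several founders and backcrossed, and the labels name no treatment for WT mice. The labels call the striatal tissue nucleus accumbens, whereas the study's results describe it as dorsal and ventral striatum together.

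Neuropeptides are cut from longer precursors in secretory granules and act on G protein-coupled receptors. Penk encodes enkephalins, which favor the delta (Oprd1) and mu (Oprm1) opioid receptors, Pdyn encodes dynorphins, which favor the kappa receptor (Oprk1), Pnoc encodes nociceptin, the ligand of Oprl1, and Tac1 encodes substance P and neurokinin A, the ligands of tachykinin receptors. In the striatum, medium spiny neurons (MSNs) that express the D1 dopamine receptor are known for dynorphin and substance P, and those that express the D2 receptor for enkephalin. In the cortex these peptides mark classes of GABAergic interneurons.

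The parts of the precursor transcripts that encode the mature peptides show what the counted RNAs carry. The stretches below come from GENCODE vM21 transcripts on GRCm38, are written 5′ to 3′ on the coding strand, and have the codons of the peptide core in capitals, with the flanking codons in lower case. Penk held 7 enkephalin cores in its 804 coding bases, 6 of Met-enkephalin and 1 of Leu-enkephalin. Each was preceded by a pair of basic codons, the signal for precursor cleavage, and copies 4 and 7 were not followed by such a pair. Pdyn held 3 Leu-enkephalin cores in 744 coding bases, the shared start of its peptides, and no Met-enkephalin core. Pnoc, with 636 coding bases, held the related start of nociceptin. Tac1 held 2 tachykinin ends in 390 coding bases, each followed by a glycine codon, the amide donor, and a basic pair. Penk copies 1 and 6, the 3 Pdyn copies, the Pnoc start and both Tac1 ends are shown because they are the stretches that become the peptides, Leu-enkephalin cores being held by both Penk and Pdyn.
Penk copy 1, Met-enkephalin, minus strand of chr4:4134328-4134354, exon 2 of 2: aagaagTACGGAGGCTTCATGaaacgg
Penk copy 6, Leu-enkephalin, minus strand of chr4:4133935-4133961, exon 2 of 2: aagaggTATGGGGGCTTCCTGaagcgc
Pdyn copy 1, minus strand of chr2:129688232-129688258, exon 4 of 4: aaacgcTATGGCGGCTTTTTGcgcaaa
Pdyn copy 2, minus strand of chr2:129688124-129688150, exon 4 of 4: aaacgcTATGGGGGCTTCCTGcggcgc
Pdyn copy 3, minus strand of chr2:129688067-129688093, exon 4 of 4: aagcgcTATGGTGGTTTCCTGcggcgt
Pnoc, start of nociceptin, minus strand of chr14:65404872-65404898, exon 3 of 4: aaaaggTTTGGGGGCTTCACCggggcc
Tac1 end 1, plus strand of chr6:7556738-7556773, exon 3 of 7: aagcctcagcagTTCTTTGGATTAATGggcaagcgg
Tac1 end 2, plus strand of chr6:7559104-7559139, exon 6 of 7: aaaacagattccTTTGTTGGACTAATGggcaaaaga

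Depth and labels were checked before the members. The libraries held 15154268 to 26277553 unique molecular identifiers (UMIs, each 1 counted RNA molecule), and 23687 cells carried a cell type, at a median of 2302.5 to 3042 UMIs a cell. Library pairs shared 1 to 24 cell barcodes, against 4.5 to 23.9 for independent draws. Setd1a itself was counted at 8.45 and 11.2 UMIs per 1000000 UMIs (CPM) for WT against 5.59 and 9.33 CPM for Setd1a+/- PFC libraries, and at 13.4 and 15.2 against 9.16 and 12.5 CPM in striatal ones, lower in Setd1a+/- in all 4 same-numbered pairs. The counted 3′ end lies outside the frameshift, so these levels alone check no label. Of 4 defining markers a type, 3 or 4 peaked in the cells so labelled, with an exception: only Gad1 of the 4 interneuron markers peaked in striatal cells labelled interneurons. Of the 7 excitatory subtypes, 5 held more of the gene in their name than the other subtypes did. The exceptions were Etv1 (233 CPM in DL-Etv1 and 1031 CPM in DL-Tshz2) and Cux2 (113 CPM in SL-Cux2 and 146 CPM in SL-Myh7), and Nnat was higher in oligodendrocyte progenitor cells (OPCs, 559.9 CPM) than in DL-Nnat neurons (284 CPM). Among the 821 striatal cells labelled interneurons, 198 held a UMI of an excitatory neuron marker (Neurod6, Slc17a7 or Tbr1). Gad1 stood at 5.07 to 42.4 CPM in these 198 cells against 621 to 937 CPM in the other 623. In the PFC only 22 of 298 interneurons held such a UMI, and their Gad1 level was 1049 to 2092 CPM. Several results on striatal interneurons are also given without these 198 cells, a split chosen after the data were seen.

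Levels are CPM of the UMIs summed over the cells of a type within a library, listed throughout in the order WT replicate 1, WT replicate 2, Setd1a+/- replicate 1, Setd1a+/- replicate 2. In such sums, fewer expressing cells and less RNA per cell cannot be told apart, so shares of cells with a UMI are given as well. Droplets also catch RNA that floats free in the suspension. Its level was read in barcodes of 1 to 50 UMIs of the same library, and it was high for the striatal peptides: 1629 to 1928 CPM for Penk, 1287 to 1666 CPM for Tac1 and 130 to 175 CPM for Pdyn. In the PFC the same barcodes held 7.86 to 20.3 CPM of Penk, 6.39 to 23.9 CPM of Tac1 and 0.469 to 4.92 CPM of Pdyn. Barcodes of 1 to 10 UMIs gave other values, 848 to 1519 CPM of Penk, 556 to 1103 CPM of Tac1 and 40.0 to 140.0 CPM of Pdyn in striatum, and 7.62 to 35.2 CPM of Penk in PFC. Cell types were made by clustering the same cells, so differences between types within a tissue are descriptions without a test.

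Among the precursors, Penk was concentrated in D2 MSNs. Its level there was 5784, 5788, 6220.2 and 4959 CPM, 49284 UMIs in all. In D1 MSNs it was 483, 499, 563 and 405 CPM, below every D2 library and below the free RNA. The D2 level was 11.7 times that of D1 on average (11.1 to 12.2 over the 4 libraries), and no other striatal type overlapped the D2 range. A Penk UMI was found in 2373 of 2451 D2 MSNs (95.8 to 98.5% by library). At 1000 UMIs a cell the D2 share was 91.7 to 94.6%, against 21.6 to 24.8% in D1 MSNs and 5.28 to 11.9% in oligodendrocytes, which should lack the gene. Median depths were 3422, 3167 and 2076 UMIs. Striatal microglia held 672, 679, 652 and 1061 CPM, above D1 MSNs but again below the free RNA, and the other striatal types overlapped one another from 43.7 to 510 CPM.

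Tac1, the substance P gene, showed the opposite arrangement. D1 MSNs held 4045, 3741, 3867 and 3307 CPM of Tac1, and D2 MSNs 499, 459, 590 and 352 CPM. The ratio averaged 8.06 (6.56 to 9.40), and the groups did not overlap. A Tac1 UMI was seen in 3392 of 3904 D1 MSNs (82.8 to 88.3%), and at equal depth in 74.3 to 80.3% of D1 MSNs, 11.9 to 15.8% of D2 MSNs and 5.17 to 10.5% of oligodendrocytes. Pdyn, the dynorphin gene, followed Tac1 with a steeper contrast. It stood at 487, 376, 349 and 307 CPM in D1 MSNs and at 18.8, 9.04, 6.25 and 13.0 CPM in D2 MSNs, a mean ratio of 36.8 (23.6 to 55.9), the D2 values resting on 106 UMIs. Pdyn was detected in 1978 of 3904 D1 MSNs (44.3 to 57.7%) and 90 of 2451 D2 MSNs (2.39 to 5.18%). All 4 D1 libraries exceeded free Pdyn by 2.00 to 2.78 times.

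**Figure D1:**
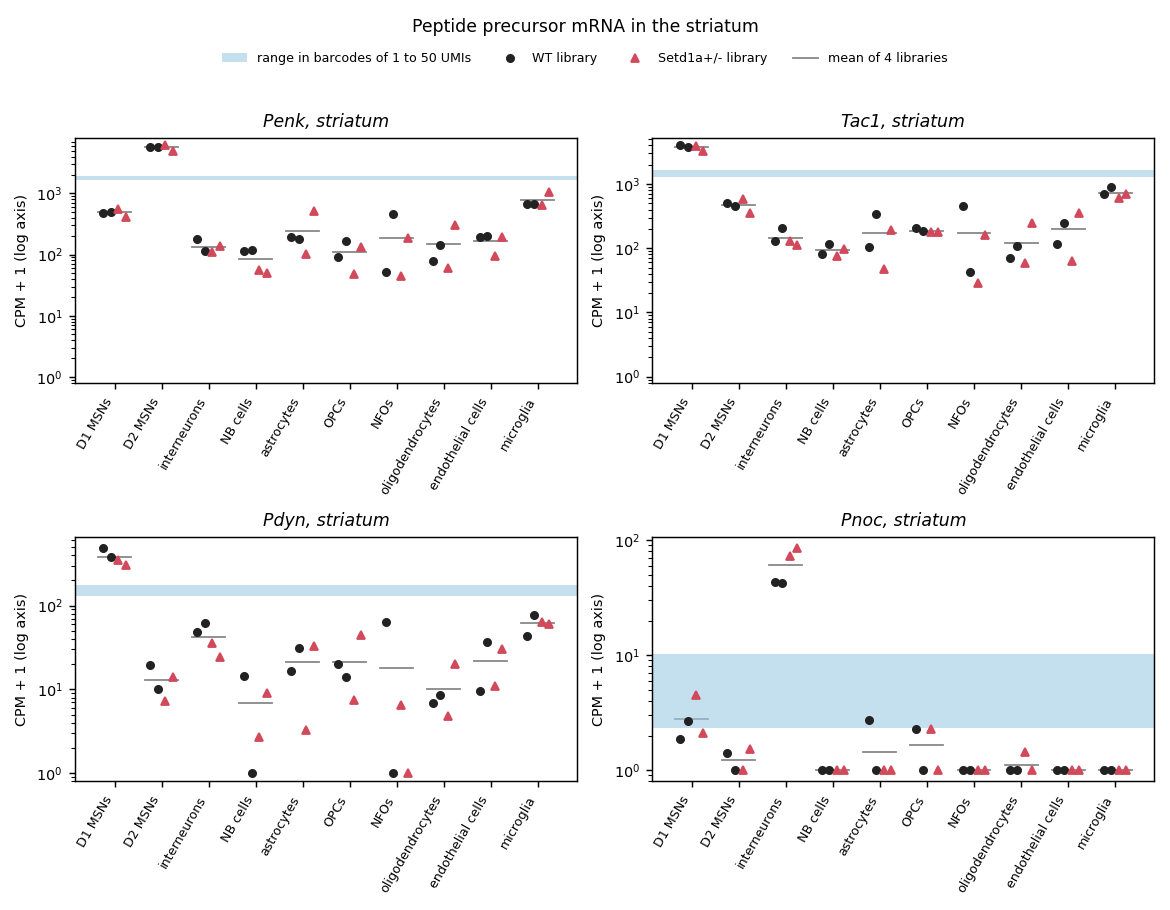
Levels of the 4 precursor genes in the 10 striatal cell types, in CPM plus 1 on a log axis, with a point for each library (black circles WT, red triangles Setd1a+/-), a grey bar for the mean of 4 libraries and a blue band for the range in barcodes of 1 to 50 UMIs. Penk exceeds the band in D2 MSNs (4959 to 6220.2 CPM), Tac1 and Pdyn in D1 MSNs, and Pnoc in cells labelled interneurons (41.1 to 84.9 CPM).

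The mixture of the 3 striatal peptides differed between cell types and free RNA. Barcodes of 1 to 50 UMIs held 0.814 Tac1 UMIs per Penk UMI (0.759 to 0.864 by library). D1 MSNs held 7.73 and D2 MSNs 0.0821. Between these lay oligodendrocytes at 0.863, astrocytes at 0.852, endothelial cells at 0.992, microglia at 1.04, NB cells (neural stem cells and neuroblasts) at 1.10 and newly formed oligodendrocytes (NFOs) at 1.43. In each of these types the range over libraries overlapped that of the free RNA, and it was wide in astrocytes (0.375 to 1.90), endothelial cells (0.603 to 1.88) and NFOs (0.0930 to 9). OPCs held 1.88 Tac1 UMIs per Penk UMI, and each of their 4 libraries (1.10 to 3.81) was above the highest free RNA ratio. For Pdyn per Tac1, interneurons held 0.296 (0.210 to 0.364) against 0.103 in free RNA (0.0914 to 0.120), again without overlap, and 0.300 (0.216 to 0.375) without the 198 cells.

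Within the MSN types, the off-type peptide was unevenly spread. The 5% of D2 MSNs with the highest Tac1 fraction held 64.3 to 73.6% of all D2 Tac1 UMIs, and 4.22 to 7.16% of D2 MSNs reached the median Tac1 fraction of D1 MSNs. For Penk in D1 MSNs the matching values were 46.6 to 53.8% of the UMIs and 1.17 to 2.74% of the cells. A group of 78 D2-labelled cells lacked any Penk UMI. Their Tac1 level was 2298 to 3509 CPM, against 264 to 550 CPM in the 2373 cells with Penk. Drd2, the D2 receptor gene, was 136 to 288 CPM in them and 158 to 206 CPM in the rest, and Drd1 rested on 1 UMI. Adora2a, another D2 MSN gene, was 284 to 633 CPM in them and 495 to 623 CPM in the rest, lower in 3 of 4 libraries. Gpr6, a further D2 MSN gene, was 109 to 148 CPM in them and 117 to 143 CPM in the rest. On 34 UMIs in the 78 cells, it was higher there in both WT libraries and lower in both Setd1a+/- libraries. Drd2 rested on 45 UMIs in the 78 cells, lower than in the rest in both WT libraries and higher in both Setd1a+/- libraries.

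Some of this spread went with genes known for eccentric MSNs, a smaller population described in striatum. Among D2 MSNs, 35 cells with a Casz1 UMI held 1282 to 5486 CPM of Tac1 against 339 to 472 CPM without, and 456 to 2020.1 CPM of Penk against 4999 to 6358 CPM. In the 48 D2 MSNs with an Otof UMI, Tac1 was 884 to 5329 CPM against 334 to 504 CPM. D1 MSNs with Otof (275 cells) held more Penk, 585 to 1747 CPM against 387 to 455 CPM, and so did the 97 with Casz1, 774 to 1065 against 398 to 553 CPM. The Casz1 cells of the D1 type held little Pdyn, 14.8 to 157 CPM against 312 to 494 CPM. With Calb1, a gene known for the striatal matrix, the pattern in D1 MSNs turned: 1261 cells with a Calb1 UMI held 238 to 338 CPM of Penk against 515 to 696 CPM without, and more Pdyn in all 4 libraries (367 to 661 against 267 to 392 CPM across libraries). Cells with Calb1 were also deeper, for example a median of 3981 against 2981 UMIs in WT replicate 1, and the part of depth was not tested. The D1 MSNs with Sema5b (192 cells), a striosome gene, held 882 to 1406 CPM of Penk against 385 to 530.2 CPM. In striatum Sema5b was highest in OPCs (32.9 CPM). The striosome genes Kremen1, Lypd1 and Bach2, the matrix genes Id4, Sv2b and Epha4 and the eccentric MSN gene Col11a1 are not given here. Pdyn with Sema5b or Otof is not given either. The genes shown are thus a part of each set, and no pattern of striosome or matrix is drawn from them. Within D1 MSNs, cells with a Pdyn UMI held more Tac1 (3863 to 4615 against 2774 to 3323 CPM) and less Penk (294 to 452 against 512 to 677 CPM) than cells without. Over all D1 MSNs Penk stood at 0.227 to 0.317 times the free RNA of its library. The parts of depth and free RNA in these D1 contrasts were not tested.

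In the PFC, Penk was highest in interneurons and in 2 excitatory subtypes. Interneurons held 154, 79.7, 113 and 209 CPM, the superficial layer SL-Myh7 subtype 72.5, 71.7, 64.7 and 100.5 CPM, and the deep layer DL-Nnat subtype 65.7, 50.9, 22.6 and 37.8 CPM. The ranges of neighbours in that order overlapped, but the order was the same within every library. All 12 of these values exceeded the free RNA of their own library, by at least 1.86 times (1.33 times with barcodes of 1 to 10 UMIs, in DL-Nnat). The next subtype, DL-Etv1, held 2.21 to 9.52 CPM, and PFC glia and endothelial cells held 0 to 10.8 CPM. PFC NFOs had 0 Penk UMIs.

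Pnoc, the nociceptin precursor, lay almost wholly in interneurons. PFC interneurons held 389, 301, 402 and 440.2 CPM, with a UMI in 141 of 298 cells (43.0 to 51.7%; 16.0 to 35.0% at 1000 UMIs a cell), against 4 of 1694 PFC oligodendrocytes at median depths of 5203.5 and 2056 UMIs. No other PFC type or subtype passed 11.6 CPM in any library. Striatal cells labelled interneurons held 42.4, 41.1, 71.4 and 84.9 CPM (108 of 821 cells), and all other striatal types at most 3.5 CPM. Free Pnoc was 9.85 to 33.4 CPM in PFC and 1.30 to 9.18 CPM in striatal libraries. Restricting to the 623 striatal cells without an excitatory marker UMI gave 62.4, 57.5, 94.4 and 127.6 CPM, while the 198 cells with one held 0 to 7.92 CPM.

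Pdyn and Tac1 in PFC interneurons came from few cells. Pdyn stood at 37.2, 69.7, 75.4 and 69.5 CPM, from 19 of 298 cells, and in each library the 3 highest cells held 82.9 to 100% of the UMIs. Without the deepest 5% of cells the mean fell from 63.0 to 34.2 CPM. In WT replicate 2, 21 of 35 Pdyn UMIs lay in cells with an excitatory marker UMI, and without those cells the level was 32.7 CPM. Tac1 stood at 494, 151, 204 and 59.6 CPM, from 29 cells, with 73.7 to 100% of the UMIs in 3 cells. The Tac1 level thus varied widely between libraries and rested on a handful of cells in each. SL-Myh7 neurons also held Pdyn, at 5.18, 25.0, 9.25 and 19.3 CPM (20 of 194 cells), 1.88 to 11.04 times the free RNA of their own library. Free Pdyn rested on 1, 4, 10 and 7 UMIs in these libraries, so the multiples are rough. Tac1 was low in excitatory neurons, with 8 UMIs in 2775 cells.

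Besides interneurons, OPCs were the PFC type in which Tac1 exceeded the free RNA in all 4 libraries. They held 70.5, 61.3, 79.0 and 69.6 CPM, 2.95 to 10.9 times the free RNA of their library, with a UMI in 146 of 1337 cells (9.84 to 11.9%). PFC NFOs held 2.98 to 44.8 CPM on 10 UMIs, 0.124 to 7.01 times the free RNA, PFC oligodendrocytes 2.86 to 25.5 CPM and excitatory neurons at most 0.836 CPM. In the striatum OPCs held 205, 183, 181 and 179 CPM of Tac1, under the striatal free RNA, while Tac1 in striatal astrocytes spread from 46.2 to 340.3 CPM.

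**Figure D2:**
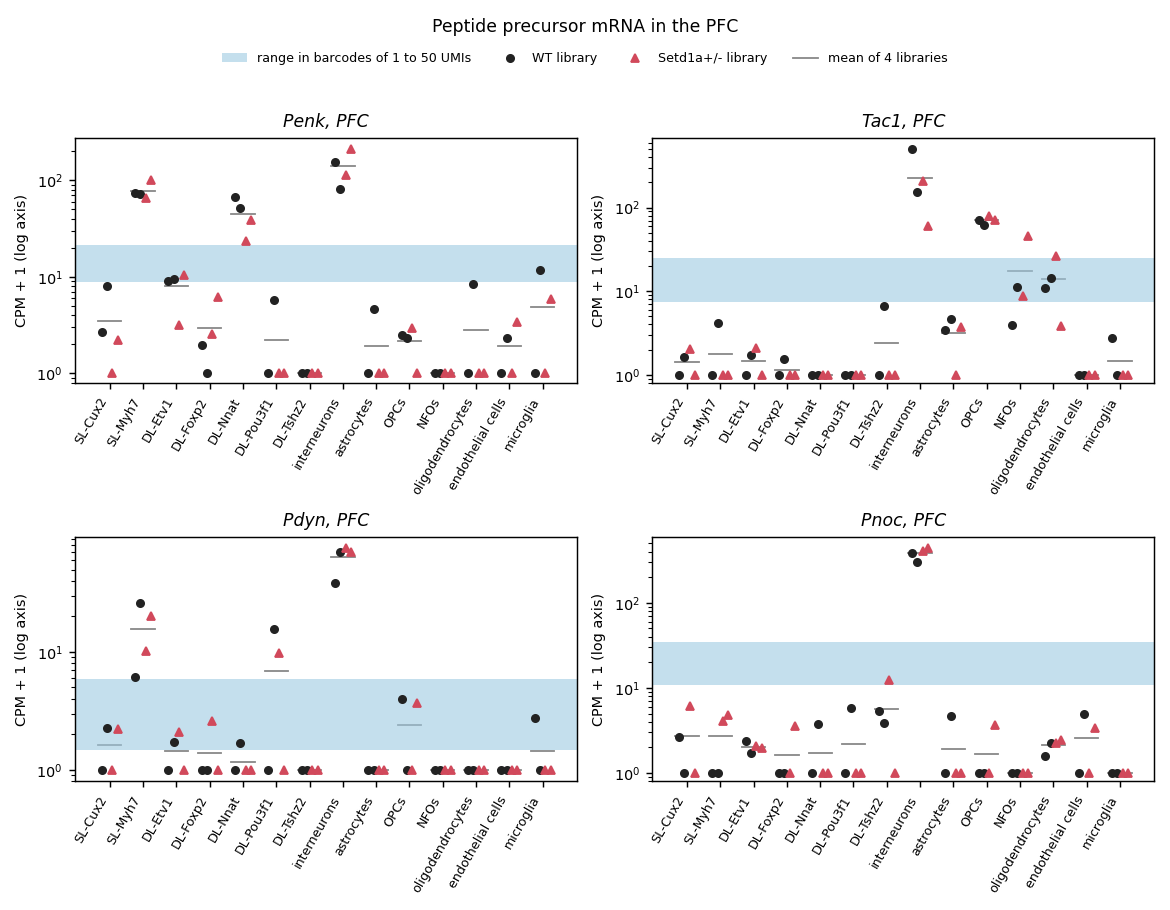
The same 4 precursor genes in the 14 PFC groups (7 cell types and 7 excitatory subtypes), in CPM plus 1 on a log axis, with symbols and band as in the striatal plot. Interneurons hold the highest mean of each gene, Pnoc at 301 to 440.2 CPM, and OPCs hold Tac1 at 61.3 to 79.0 CPM.

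Within interneurons the peptides lay in different cells. Interneurons were grouped by whether they held a UMI of a class gene, a description over cells that share a library. In the PFC all 103 Pdyn UMIs lay in the 107 cells with an Sst (somatostatin) UMI, where Pdyn was 116, 160, 167 and 198 CPM, against 0 in the 191 cells without. None of the 59 cells with Vip, the 118 with Cck or the 49 with Penk held a Pdyn UMI. Penk instead went with Vip, a peptide of disinhibitory interneurons: 494, 609, 628 and 746 CPM in the 59 Vip cells against 129, 28.4, 13.2 and 9.08 CPM in the other 239. It was also high in cells with Calb2 (408 to 1055 against 2.46 to 80.1 CPM), and the 100 cells with Lamp5, a marker of neurogliaform cells, held 1 Penk UMI. Pnoc went with Lamp5, at 792, 641, 869 and 749.6 CPM against 119, 141, 121 and 213 CPM. Its level was also higher with Npy (401 to 542 against 92.2 to 249 CPM) and Cck (477 to 669 against 181 to 298 CPM) and lower with Sst (35.8 to 143 against 471 to 658 CPM). No Tac1 UMI was found in the Vip cells.

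In striatal interneurons Pnoc was again higher with Lamp5 and Npy, while Pdyn was higher with Th. Over all cells of the type, Penk, Pdyn and Tac1 lay below the free RNA of their library (0.0604 to 0.0916, 0.154 to 0.396 and 0.0786 to 0.157 times). Pnoc lay above it. The part of free RNA in the values that follow was not tested. Pdyn was higher in the 79 cells with Th, the dopamine synthesis gene: 147, 322, 145 and 127 CPM against 43.5, 43.1, 23.1 and 13.5 CPM. Tac1 was low in those Th cells (12.9 to 73.4 CPM) and high in the 171 with Sst, at 441, 340.1, 252 and 217 CPM against 82.4, 154, 64.5 and 83.1 CPM. In WT replicate 2 the share of cells with a Tac1 UMI was not higher with Sst (33.3 against 36.9%), and 1 cell held 79 of the 246 Tac1 UMIs. Penk was higher with Calb2 in all 4 libraries (239, 279, 110.2 and 199 against 163, 79.2, 107 and 124 CPM), but in 2 of 4 without the 198 cells with an excitatory marker UMI. The contrast was smaller than in the PFC. Pnoc was higher with Lamp5 (93.6, 166, 278 and 616 against 37.9, 29.6, 46.9 and 46.5 CPM) and with Npy (118, 78.2, 155 and 183 against at most 57.8 CPM). Without those 198 cells the differences with Th, Sst, Lamp5 and Npy kept their direction in all 4 libraries. Pdyn was then 127 to 322 CPM with Th against 17.0 to 65.4 CPM, and Tac1 was 12.9 to 73.4 CPM with Th against 165 to 289 CPM and 289 to 523 CPM with Sst against 70.5 to 211 CPM. Pnoc was 105 to 799 CPM with Lamp5 against 42.5 to 68.6 CPM and 99.97 to 219.8 CPM with Npy against 35.1 to 95.2 CPM. Pdyn, held wholly by Sst cells in the PFC, was not higher with Sst in 3 of 4 striatal libraries (11.1 to 100.5 against 24.1 to 61.0 CPM). Median depth differed between the cells with and without a class gene by library and gene, for example 3587 to 4408 UMIs with Vip and 5258 to 7744 without in PFC, and its part in these values was not tested.

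**Figure D3:**
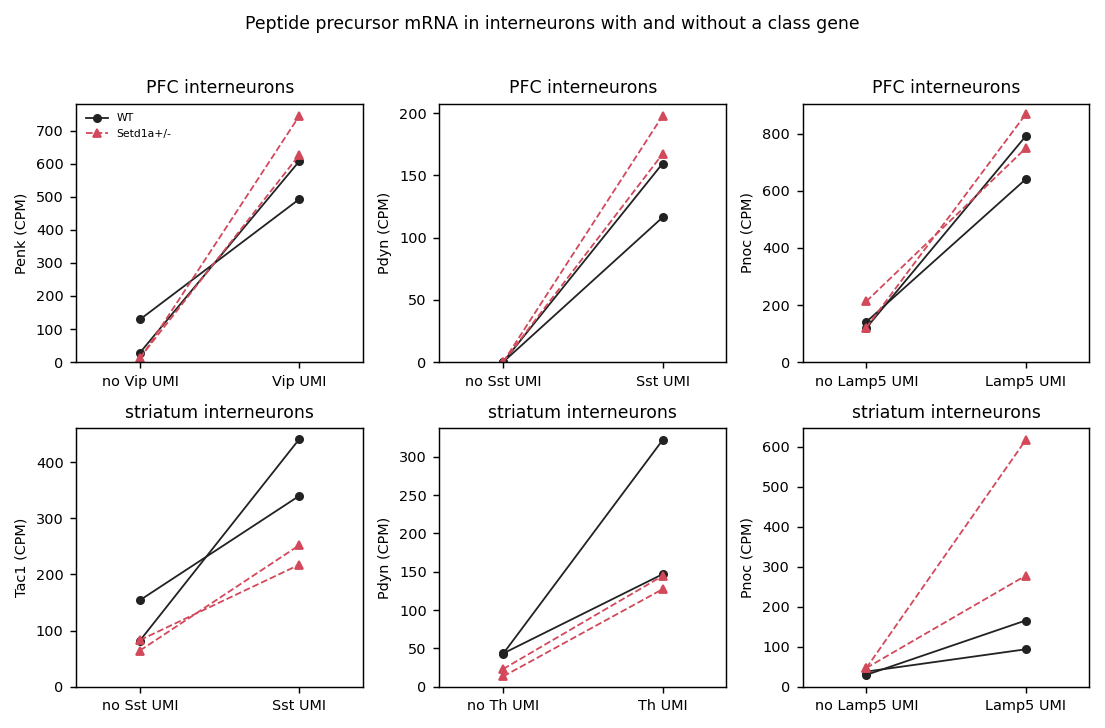
Levels in interneurons with and without a UMI of a class gene, in CPM on a linear axis, with a line joining the 2 values of each library (black WT, red Setd1a+/-). All 4 lines fall from cells with to cells without the class gene in each of the 6 panels, for example from 494 to 746 CPM down to 9.08 to 129 CPM for Penk and Vip in PFC.

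Among the receptors, Oprk1 (kappa) had the widest range of levels across the PFC excitatory subtypes. In the PFC the DL-Nnat subtype held 40.0, 54.4, 61.8 and 27.0 CPM, with a UMI in 97 of 463 cells (15.6 to 23.4%; 2.60 to 6.25% at 1000 UMIs a cell), 4.65 to 20.9 times the free RNA. DL-Etv1 neurons held 20.2, 15.0, 8.83 and 9.52 CPM, below every DL-Nnat library. No UMI was seen in SL-Myh7 neurons, 0 of 194 cells, which allows a share of cells with a UMI of up to 1.55%. Oprk1 was also nearly absent from the counts of PFC interneurons, at 0, 7.97, 4.44 and 0 CPM (6 UMIs). Within DL-Nnat the 97 cells with Oprk1 held more Penk in each library, 142, 57.5, 66.4 and 88.1 against 40.1, 48.6, 11.4 and 26.5 CPM, on 64 and 91 UMIs. Median depth was higher in the Oprk1 cells too (for example 6973 against 5596 UMIs in WT replicate 2), and its part was not tested.

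In the striatum both MSN types held Oprk1. D1 MSNs had 68.2, 65.2, 72.4 and 52.9 CPM (690 of 3904 cells) and D2 MSNs 43.0, 43.9, 36.7 and 31.7 CPM (280 of 2451), a ratio of 1.68 on average (1.48 to 1.97) with no overlap. Both types exceeded the free RNA of their own library (15.0 to 33.9 CPM overall), D1 by 1.92 to 4.58 times and D2 by 1.30 to 2.32 times. Cells labelled interneurons held 19.7, 18.9, 11.1 and 25.5 CPM. In that group the level followed the excitatory markers: the 198 cells with an excitatory marker UMI held 27.6, 43.3, 20.3 and 47.5 CPM (50 UMIs), and the 623 without held 15.3, 9.20, 8.13 and 13.2 CPM (35 UMIs), no more than the range in free RNA.

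Oprl1, the nociceptin receptor gene, was highest in OPCs of both tissues. PFC OPCs held 88.4, 65.2, 98.7 and 80.3 CPM (180 of 1337 cells) and striatal OPCs 67.2, 65.7, 77.1 and 43.2 CPM (147 of 1441 cells), 3.62 to 6.51 and 2.87 to 8.40 times the free RNA. OPCs did not overlap any other type of their tissue. Striatal interneurons held 20.5 to 37.4 CPM without the 198 cells with an excitatory marker UMI and 13.2 to 17.3 CPM in those cells. A UMI was found in 1 of 1694 PFC oligodendrocytes and 5 of 295 PFC NFOs, at a median depth of 2056 UMIs in the former and 1651 in OPCs. The 7 excitatory subtypes overlapped one another at 8.10 to 44.4 CPM, while PFC free RNA held 12.8 to 26.1 CPM. By library they stood at 0.596 to 3.08 times the free RNA, and PFC interneurons at 0.596 to 2.31 times. All excitatory neurons together stood at 1.11 to 1.64 times. With barcodes of 1 to 10 UMIs, on 2 to 6 free UMIs a library, excitatory neurons stood at 1.54 to 3.83 times and PFC interneurons at 1.53 to 2.18 times. D1 MSNs held 16.5, 13.9, 21.0 and 16.9 CPM and D2 MSNs 9.18, 8.39, 7.03 and 5.72 CPM, a ratio of 2.35 (1.65 to 2.98). The D2 values lay within or below the free RNA of 7.82 to 15.0 CPM. D1 MSNs stood at only 1.12 to 1.77 times the free RNA of their library. Within PFC OPCs, Tac1 was 49.2 to 111 CPM in cells with an Oprl1 UMI and 62.7 to 73.6 CPM in those without (22 and 138 UMIs), ranges that overlap.

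The mu and delta receptor genes were near the limit of detection. Oprm1 gave 54 UMIs in D1 MSNs (5.59, 4.14, 5.00 and 1.84 CPM) and 17 in D2 MSNs (2.92, 2.58, 1.56 and 0 CPM). The ranges overlapped, with D1 above D2 within each library. In the PFC it gave 21 UMIs in 2775 excitatory neurons and 4 in interneurons. Oprd1 gave 10 UMIs in D2 MSNs, spread over 10 cells and all 4 libraries (1.25, 1.29, 0.781 and 1.04 CPM). Free Oprd1 was 0 to 1.80 CPM, and the D2 level was 0.696 to 1.98 times it in the 3 libraries where it was found. The part of free RNA in these 10 UMIs was not tested. Striatal barcodes of 1 to 10 UMIs held 0 CPM of Oprd1, on fewer UMIs in all. D1 MSNs had none, 0 of 3904 cells, which allows a share of cells with a UMI of up to 0.0768% and sets no limit on cells that express the gene. Oprd1 was also at 0 in PFC interneurons, 0 of 298 cells, which allows up to 1.01% of cells with a UMI. At this depth differences of these 2 genes between most types were not detectable. Limits and intervals of this kind cover counting error only.

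**Figure D4:**
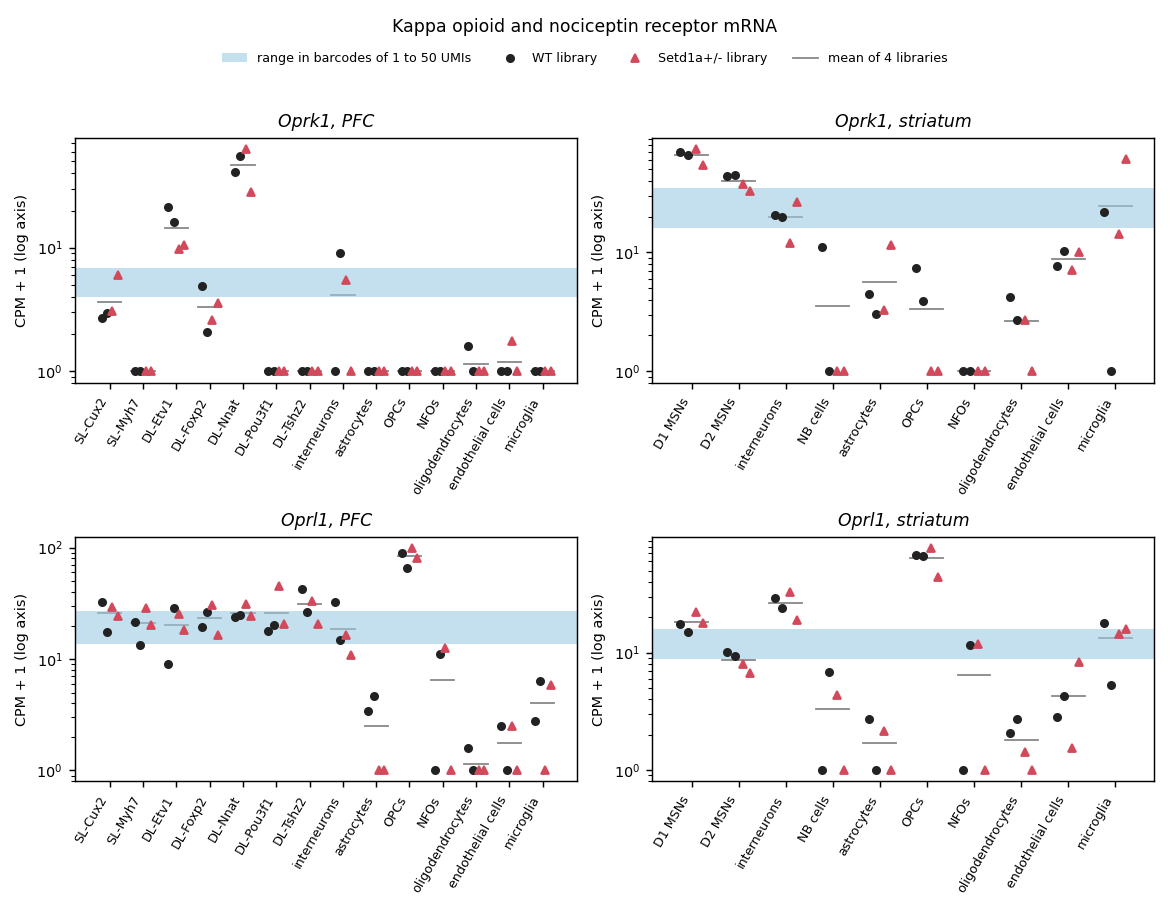
Oprk1 and Oprl1 by cell type and excitatory subtype in PFC and striatum, in CPM plus 1 on a log axis, with symbols and band as in the peptide plots. Oprk1 is highest in DL-Nnat neurons (27.0 to 61.8 CPM) and MSNs, and Oprl1 in OPCs of both tissues (43.2 to 98.7 CPM).

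To compare genotypes, UMI sums were tested per cell type with edgeR's quasi-likelihood test and Benjamini-Hochberg adjustment over all genes of that type, and a gene was called at an adjusted p (FDR) under 0.05 with a fold change above 1.5 in PFC or 2 in striatum, the cutoffs of the study. No opioid or tachykinin member was called in any type. In PFC cell types 6 members could be tested in 10 member and type pairs after the filter on low counts, with 0 at an unadjusted p under 0.05 (0% of all gene tests called and 1.70% under 0.05). In PFC excitatory subtypes 3 members gave 9 tests, 1 of them under 0.05 (0% of all tests called and 1.60% under 0.05). In striatal types 7 members gave 38 tests, 4 of them under 0.05 (0.00544% of all tests called and 2.62% under 0.05). DESeq2 also called 0. These tests leave out the pairing of WT and Setd1a+/- libraries within a replicate. In each set fewer gene tests fell under 0.05 than that threshold gives without any difference. The lack of calls therefore does not show equal expression. Oprd1 passed the filter nowhere, and Oprm1 in D1 MSNs only.

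At the main sites of expression the genotype differences were as follows. Penk in D2 MSNs differed by -0.01 log2 units, Setd1a+/- against WT (95% interval -0.40 to 0.39), Tac1 in D1 MSNs by -0.08 (-0.44 to 0.29) and Oprk1 in D1 MSNs by -0.06 (-0.46 to 0.35). Pdyn in D1 MSNs was 487 and 376 CPM for WT against 349 and 307 CPM for Setd1a+/- libraries, which do not overlap, a log2 difference of -0.36 (SE 0.16, FDR 1.00 in edgeR). In PFC interneurons Pnoc differed by 0.31 (-0.28 to 0.90), with both Setd1a+/- libraries above both WT libraries. Oprl1 in PFC OPCs differed by 0.24 (-0.41 to 0.88). The MSN intervals lie within the 2-fold cutoff and the PFC intervals reach past the 1.5-fold cutoff, and neither shows equal expression.

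Striatal interneurons held the smallest unadjusted p among the members. Pnoc was 42.4 and 41.1 CPM for WT against 71.4 and 84.9 CPM for Setd1a+/- libraries, a log2 difference of 0.96 (SE 0.23, FDR 1.00 in edgeR). Pdyn went the other way, 47.7 and 60.9 against 34.5 and 23.6 CPM, a difference of -0.87 (SE 0.28, FDR 1.00 in edgeR), with all 4 values at 0.154 to 0.396 times free Pdyn. Neither passed the correction, although the genotypes did not overlap for either gene, and Pnoc was called once Setd1a+/- replicate 1 was left out (1.06, FDR 0.0340 in edgeR), as were 0.392% of all genes in that fit. Only 1 Setd1a+/- library is left in that comparison, and it is assumed to vary like the WT pair. Without the 198 cells holding excitatory markers the differences were 0.94 (FDR 0.868 in edgeR) and -0.997 (FDR 1.00 in edgeR). Class genes also varied between libraries: cells with Th, where Pdyn is higher, made up 5.28 and 8.99% of WT and 12.3 and 12.9% of Setd1a+/- striatal interneurons, and cells with Lamp5 9.76 and 8.99% against 10.1 and 6.45%. Their part in these values was not tested.

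The other differences under an unadjusted p of 0.05 were Penk in NB cells and DL-Nnat neurons and Tac1 in NFOs. Penk in striatal NB cells was 112 and 117 CPM for WT against 55.1 and 48.9 CPM for Setd1a+/- libraries (log2 difference -1.05, SE 0.33, FDR 1.00 in edgeR), all far below free Penk. Penk in DL-Nnat neurons was 65.7 and 50.9 against 22.6 and 37.8 CPM (-0.96, SE 0.36, FDR 1.00 in edgeR). Tac1 in striatal NFOs was 460.3 and 42.3 against 27.3 and 161 CPM (-2.24, SE 0.90, FDR 0.999 in edgeR), at 0.0193 to 0.276 times free Tac1. There WT replicate 1 alone set the direction: without it the difference was 0.85, and without WT replicate 2 it was -2.95 and called (FDR 2.51e-06 in edgeR, with 0.231% of all genes called), with WT replicate 1 as the lone WT library and the spread taken from the Setd1a+/- pair. In PFC interneurons Tac1, whose unadjusted p was above 0.05, differed by -1.21 (SE 0.60, FDR 1.00 in edgeR), and without Setd1a+/- replicate 1 by -2.34, which was called (FDR 0.000378 in edgeR). That call rests on 1 Setd1a+/- library of 18 Tac1 UMIs in 2 cells, 10 of them in cells with an excitatory marker UMI, assumed to vary like the WT pair, and that fit called 0.16% of all genes. Within both same-numbered pairs the Tac1 level was lower in the Setd1a+/- library. Class genes moved with the libraries: Vip cells, without any Tac1 UMI, made up 12.5 and 11% of WT and 23.3 and 35% of Setd1a+/- PFC interneurons, and Pvalb cells 20.8 and 8% against 7.78 and 0%. Their part in the Tac1 values was not tested.

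Ranges of the 2 WT and the 2 Setd1a+/- libraries did not overlap for 1 higher and 1 lower member test in PFC types, against 12 and 14.3% of all gene tests. In the subtypes there were 0 higher and 2 lower of 9 (13.2 and 13.5% of all tests), and in striatum 2 higher and 7 lower of 38 (12.9 and 18.1%). With so few tests in the PFC, and a striatal split of 7 lower in 38, these counts stay near the background.

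**Figure D5:**
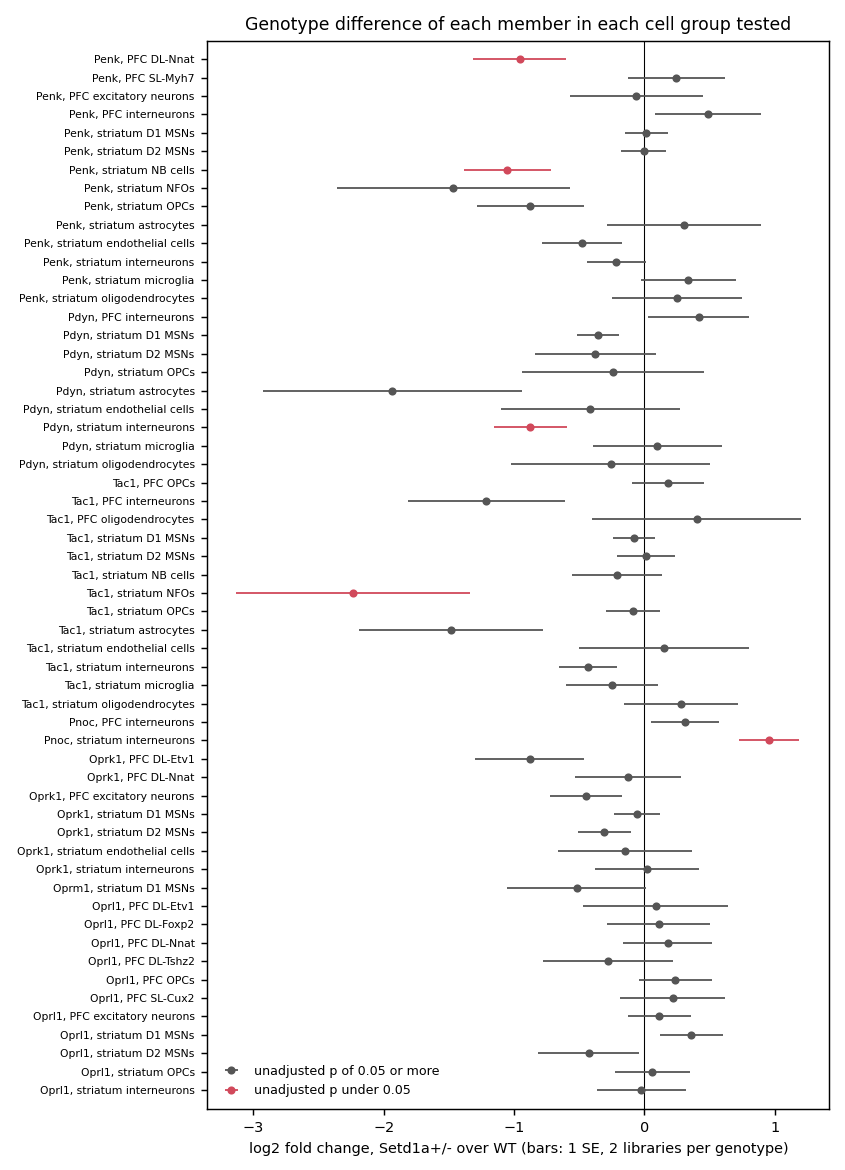
Log2 differences of the members, Setd1a+/- against WT, in the 57 member and group pairs tested, as points with bars of 1 standard error, and in red the 5 pairs with an unadjusted p under 0.05. None passed the adjusted threshold, and the points range from -2.24 (Tac1 in striatal NFOs) to 0.96 (Pnoc in striatal interneurons).

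Whether the genotype difference itself differed between cell types was tested as an interaction, called at an FDR under 0.05 with no cutoff on the fold. Between D2 and D1 MSNs, 0 of 6 members were called (0.0819% of all genes), with 0 at an unadjusted p under 0.05 (4.47% of all genes). The spread in this fit was taken from all genes together. Its intervals therefore do not show how a single gene varied between libraries. The difference of differences was -0.01 for Penk (-0.11 to 0.09), 0.05 for Tac1 (-0.06 to 0.17), 0.03 for Pdyn (-0.59 to 0.65) and -0.23 for Oprk1 (-0.65 to 0.18). It was -0.78 for Oprl1 (-1.64 to 0.07), whose D1 to D2 ratio was 1.79 and 1.65 for WT against 2.98 and 2.95 for Setd1a+/- libraries, on 9 to 26 UMIs a library in D2 MSNs, and -1.44 for Oprm1 (-3.63 to 0.76). Between striatal and PFC interneurons, 0 of 6 were called (0% of all genes), with 1 at an unadjusted p under 0.05 (3.44% of all genes). That was Pdyn (-1.30, SE 0.48, FDR 1.00 in edgeR), while Pnoc stood at 0.62 (SE 0.33, FDR 1.00 in edgeR). This fit was not repeated without the striatal cells holding an excitatory marker UMI. Striatal Pdyn stood at 0.154 to 0.396 times free Pdyn, and in PFC the 3 highest cells held 82.9 to 100% of a library's Pdyn UMIs.

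Tissues were compared within like-named types, with genotype as a covariate. Tissue, dissociation and clustering run go together here and cannot be told apart. Of 19 member tests 13 were called higher in striatum (3.98% of all gene tests) and 1 lower (1.6%). Genes were filtered on the counts of both tissues together, so several members were tested only through their striatal counts. PFC endothelial cells, for example, held 0 Tac1 and 0 Pdyn UMIs, and PFC microglia 3 Penk, 1 Tac1 and 1 Pdyn UMIs. For such members a call could only be higher in striatum. The count of calls is therefore a description and no test of the members as a set. In the glial, vascular and immune types the calls covered Penk and Tac1 in astrocytes, endothelial cells, microglia, oligodendrocytes and OPCs, and Pdyn in endothelial cells and microglia. Microglia, for example, held 652 to 1061 CPM of Penk in striatum and 0 to 10.8 CPM in PFC. The free RNA differed in the same direction, 1629 to 1928 against 7.86 to 20.3 CPM, and so did Rgs9 and Adcy5, genes of MSN signalling, in microglia (125 to 206 against 0 to 10.1 CPM for Rgs9 and 116 to 194 against 0 to 10.1 CPM for Adcy5). Their part in these calls was not tested. In OPCs Tac1 was 179 to 205 CPM in striatum and 61.3 to 79.0 CPM in PFC, a log2 difference of 1.45 (SE 0.17, FDR 0.00046 in edgeR; 1.57 and FDR 0.0800 in WT libraries alone), while Oprl1 differed by -0.27 (-0.70 to 0.15) and was not called.

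Interneurons of the 2 tissues differed in Pnoc. The striatal level was lower, 41.1 to 84.9 against 301 to 440.2 CPM, a log2 difference of -2.68 (SE 0.18, FDR 2.29e-07 in edgeR), and it remained called without the cells holding an excitatory marker UMI (-2.15, FDR 1.74e-06 in edgeR). Among all genes tested in interneurons, 8.34% were called, 4.68% higher and 3.66% lower in striatum. Class genes differed between the tissues too. Cells with Lamp5, where Pnoc is higher, made up 31.7 to 35.6% of PFC and 6.45 to 10.1% of striatal interneurons. Cells with Npy made up 53.3 to 66% and 12.2 to 28.6%. Their part in the Pnoc difference was not tested. Oprk1, with 6 UMIs in PFC interneurons, was tested through its striatal counts and could only be called higher there. It was called higher in striatum, 11.1 to 25.5 against 0 to 7.97 CPM (2.34, SE 0.60, FDR 0.0167 in edgeR). That call was lost without PFC WT replicate 1 (FDR 0.0561 in edgeR) and in WT libraries alone (FDR 0.112 in edgeR), and without any single striatal library, or without the cells holding an excitatory marker UMI, the gene was too low to be tested. In the latter case it stood at 8.13 to 15.3 CPM in striatum and 0 to 7.02 CPM in PFC. Penk (0.02, interval -0.52 to 0.57), Pdyn (-0.60), Tac1 (-0.55) and Oprl1 (0.55) were not called between interneurons of the tissues. The Pdyn difference changed sign without the cells holding an excitatory marker UMI. Its level was then 32.3 to 79.3 CPM in striatum and 32.7 to 79.1 CPM in PFC. Over all striatal interneurons Penk, Pdyn and Tac1 stood below the free RNA of their library, at 0.0604 to 0.0916, 0.154 to 0.396 and 0.0786 to 0.157 times. In PFC they stood above it, at 4.26 to 14.4, 15.3 to 79.2 and 9.32 to 20.7 times. The Pdyn multiples in PFC rest on 1, 4, 10 and 7 free UMIs. The part of free RNA in these differences was not tested.

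Of the 47 other genes of the pathway, none was called between genotypes in any cell type. The counts by list in striatal types were 0 of 126 tests for receptor signalling, 0 of 66 for peptide processing, 0 of 34 for secretory granule proteins, 0 of 31 for peptide breakdown and 0 of 11 for other ligands and receptors, with 3, 2, 1, 1 and 0 at an unadjusted p under 0.05 (2.62% of all gene tests). In the PFC types the same lists gave 0 of 79, 40, 19, 18 and 3, with 2, 2, 1, 0 and 0 under 0.05 (1.70%), and in the subtypes 0 of 103, 44, 28, 17 and 4, with 3, 1, 0, 0 and 1 (1.60%). DL-Nnat neurons, where Penk had a low p, also held Rgs4, a brake on G protein signalling, at 239.8 and 231.5 CPM for WT against 369 and 558 CPM for Setd1a+/- libraries (0.97, FDR 1.00 in edgeR). Pomc, the beta-endorphin precursor, was at 24.3 and 24.4 against 4.52 and 12.6 CPM in the same subtype (-1.56, FDR 1.00 in edgeR). In striatal interneurons the smallest p values were those of Grk5 (1.73), Pam, the amidating enzyme (0.96), Ece1 (-0.90) and Rgs4 (0.42), all at FDR 1.00 in edgeR. Without Setd1a+/- replicate 1, Pam in these cells (1.54, FDR 9.77e-07 in edgeR) and Rgs4 in DL-Nnat neurons (1.26, FDR 0.0123 in edgeR) were called, again with 1 Setd1a+/- library whose spread is assumed to be that of the WT pair, in fits that called 0.392 and 0.119% of all genes. Elsewhere Cpd was 1.53 in striatal astrocytes (FDR 0.919 in edgeR), Scg3 -1.22 in PFC endothelial cells (FDR 0.999 in edgeR) and Kcnj6, a potassium channel opened by opioid receptors, -0.90 in DL-Foxp2 neurons (FDR 1.00 in edgeR).

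Between tissues most calls among the pathway genes were higher in striatum. Of 37 tested in interneurons, 6 were called higher and 2 lower, against 4.68 and 3.66% of all genes tested there. Tacr1, the substance P receptor gene, was 24.2 to 64.0 CPM in striatal and 0 to 3.31 CPM in PFC interneurons (4.42, SE 0.61, FDR 0.000149 in edgeR), and Tac2, the neurokinin B gene, 0 to 62.9 against 82.9 to 579 CPM (-3.20, SE 0.69, FDR 0.00561 in edgeR). Both remained called without the cells holding an excitatory marker UMI, at 4.78 and -3.20, but Tac2 was not called by DESeq2 (FDR 0.105) or in WT libraries alone (FDR 0.0917 in edgeR). Rgs4 (1.64), Gnaz (1.30) and Adcy5 (1.55) were also called with and without those cells, whereas Pcsk2 (1.43) and Qpct (-1.09), enzymes of precursor processing, were called only with them, and Rgs14 (4.39) was then too low to be tested. In the other types the calls were 9 of 18 genes in astrocytes (10.1% of all genes tested there were called), 10 of 33 in endothelial cells (5.30%), 8 of 16 in microglia (18.0%), 3 of 23 in oligodendrocytes (2 higher and 1 lower; 1.92%), 1 of 28 in OPCs (0.223%) and 0 of 8 in NFOs (0.0604%). Rgs9, Adcy5, the granule gene Scg2 and the processing gene Scg5 were among those that recurred. Scg2, for example, stood at 151 to 317 CPM in striatal and 3.55 to 54.1 CPM in PFC microglia. By list, 16 of 79 receptor signalling tests, 13 of 43 peptide processing tests and 6 of 20 secretory granule tests were called higher and 2 of peptide processing lower, against 3.98% higher and 1.6% lower over all gene tests. Peptide breakdown had 0 calls of 17 tests, and other ligands and receptors 1 higher and 1 lower of 4. As for the members, genes were filtered on both tissues together. A gene as low in PFC as Tacr1 in interneurons was tested through its striatal counts and could only be called higher in striatum. Free RNA was not read for these genes, and its part in the calls of glial, vascular and immune types was not tested.

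Across 24 cell groups of both tissues, each member was compared with the other genes by Pearson correlation of log2(CPM + 1) over the mean levels. The groups share libraries and depth, and 12787 genes with at least 200 UMIs were ranked. The genes most like Penk were Drd2 (0.89) and Gpr6 (0.89), those most like Pdyn were Slc35d3 (0.88), Slc32a1 (0.85) and Necab2 (0.85), and those most like Tac1 were Slc32a1 (0.86), Asic4 (0.85) and Syndig1l (0.85). For Pnoc they were Vip (0.94), Crhbp (0.90) and Cort (0.85). Among the receptors, Oprk1 was nearest to Gm38413 (0.86), Car12 (0.84) and Gm16701 (0.82), Oprl1 to Bscl2 (0.91), Slc35f1 (0.91) and Ier3ip1 (0.91), Oprm1 to Cntnap2 (0.89), Smim17 (0.88) and Ndufa6 (0.87), and Oprd1 to Shf (0.71), Gm36495 (0.71) and Arc (0.68). The last 2 receptors rest on few UMIs.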

How the data were processed

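Single-cell libraries were made on the 10x Chromium platform. The submitters' processing notes name Cell Ranger 3.0.2, Seurat 3.2.0 and mm10. The authors deposited raw UMI counts for each gene and barcode and tables of cell names with a type, for cells of at least 800 genes and at most 10% mitochondrial counts. Their expression table was not used, because its gene column holds row numbers. No doublet caller was run, and how doublets were treated before deposit is not given in the sources used here. The study's test over single cells was not run.

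UMI counts were summed by library and cell type, so libraries and not cells are the replicates, and levels are CPM, the share of a type's UMIs scaled to 1000000. Sums were tested with edgeR 4.0.16 (quasi-likelihood, TMM, filterByExpr with a minimum count of 10, at least 10 cells a library) in R 4.3.3, with Benjamini-Hochberg adjustment within each type. With 2 libraries a group, p-values rest on the spread between these libraries, each a pool of 2 mice. edgeR moderates that spread toward the trend over all genes, so standard errors and intervals also borrow from other genes. In the D1 against D2 interaction the spread was taken from all genes together. The text on genes covers all 8 members, pathway genes called and, where none is called, up to 6 of the smallest unadjusted p. Of the pathway genes called between tissues outside interneurons, only some are named. Free RNA was read in barcodes of 1 to 50 UMIs, with 1 to 10 as an alternative. Shares of cells were recomputed after thinning to 1000 UMIs, a count of 0 was given an upper limit of 3 counts, and Wilson 95% intervals stand in the tables. Intervals of log2 differences use a standard error derived from edgeR's F statistic, with its degrees of freedom. Alternatives were DESeq2 1.42.0, library size scaling, no filter, a replicate block, each library left out, other denominators and an added one without interneurons holding an excitatory marker UMI. The scripts were tested on simulated data. An item that the rule for likeness would name is not reported here.

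The methods state that each biological replicate held 1 WT and 1 mutant sample. As a check, same-numbered libraries deviated together, with a median correlation of 0.46 in PFC subtypes, 0.369 in PFC types and 0.185 in striatal types. The members and gene lists were chosen with earlier results of these data known.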

Additional observations from a re-analysis of the deposited data

Results flagged for a closer look

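Between D1 and D2 MSNs, 1 of the 40 pathway genes tested differed in its genotype effect, which is why it stands here, against 0.0819% of all genes tested. This test had no cutoff on the fold. Scg2, a secretory granule protein gene, stood at 989 and 846 CPM for WT against 1123 and 716 CPM for Setd1a+/- D1 MSNs, and 822 and 693 against 1166 and 693 CPM in D2 MSNs, in the order of the replicates. The genotype difference in D2 exceeded that in D1 by 0.285 log2 units (SE 0.06, FDR 0.00497 in edgeR with the library as a block). That fit took the spread from all genes together, so the FDR does not measure how Scg2 itself varied between libraries. Without that block the call was lost (0.29, FDR 1.00 in edgeR). Within each type the genotypes overlapped, and Setd1a+/- replicates 1 and 2 stood on opposite sides of the WT range in D1 MSNs.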

How the results depend on the processing

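The 8 genes gave 0 genotype calls under DESeq2, library size scaling and the replicate block in PFC types, PFC subtypes and striatal types. The block called 0.0508, 0.0246 and 0.108% of all gene tests in these 3 sets. With a library left out, a group of 1 library is assumed to vary like the other, and 0 to 1 were called in PFC types (Tac1 in interneurons without Setd1a+/- replicate 1, 1 of 12 tests against 0.0453% of all gene tests) and 1 to 4 in striatal types. The 4 of 38 without Setd1a+/- replicate 1 (0.518% of all gene tests) were Tac1 in endothelial cells, Pnoc in interneurons (1.06, FDR 0.0340 in edgeR) and Penk and Tac1 in oligodendrocytes. The calls with another library left out were Penk and Tac1 in endothelial cells (lower, without Setd1a+/- replicate 2, 0.18% of all gene tests called) and Penk or Tac1 in NFOs (without WT replicate 1 or 2, 0.114 and 0.0828%). Without the filter, 1 of 65 striatal tests was called, Tac1 in NFOs (0.0715% of all gene tests). Tissue calls were 14 of 19 (5.58% of all gene tests) and became 22 of 46 without the filter (4.9%), 19 of 24 with the replicate block (8.19%), 10 of 19 in WT alone (2.37%) and 14 to 17 of 19 to 24 with a library left out (3.5 to 7.37%). These tissue counts include members tested only through their striatal counts. Without the interneurons that held an excitatory marker UMI, Pdyn turned from -0.60 to 0.056 between tissues. Penk between interneurons of the tissues was -0.00039 with DESeq2, -0.0054 with library size scaling and -0.21 to 0.29 with a library left out.

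Leaving out 1 library also turned differences that were not called. The ranges were -0.16 to 0.00081 for Tac1 and -0.26 to 0.13 for Oprk1 in D1 MSNs, -0.15 to 0.12 for Penk in D2 MSNs, -0.61 to 0.23 for Oprl1 in striatal OPCs (-0.025 with DESeq2), -0.18 to 0.0021 for Tac1 in striatal OPCs, -3.28 to 0.85 for Tac1 in striatal NFOs, -0.020 to 0.98 for Penk in PFC interneurons, -0.82 to 0.31 for Oprk1 in DL-Nnat, -0.18 to 0.54 for Penk in SL-Myh7 and -0.11 to 1.54 for Pam in striatal interneurons. The cause of these turns was not tested. The D2 to D1 ratio of Penk was 10.8 as a mean over cells and 12.6 without MSNs holding a marker UMI of the other type. Pdyn in PFC interneurons was 34.2 CPM without the deepest 5% of cells, against a mean of 63.0 CPM. With 2 libraries a group, low counts of Oprm1 and Oprd1 limit what could be detected. With free RNA read in barcodes of 1 to 10 UMIs, its mean in striatum went from 1779.6 to 1271.6 CPM for Penk, from 1432 to 866 CPM for Tac1 and from 153 to 103 CPM for Pdyn, and in PFC from 15.9 to 23.2 CPM for Penk and from 17.1 to 6.99 CPM for Pnoc. The lowest multiple of free RNA was then 1.33 for Penk in DL-Nnat neurons and 1.82 for Pdyn in SL-Myh7 neurons, the latter on 1 or 2 free UMIs a library.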
